A study of Homo sapiens with 4 samples.

Results

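The proteasome genes were taken as the protein-coding genes of the GENCODE annotation on GRCh38 whose symbols start with PSMA, PSMB, PSMC, PSMD, PSME, PSMF or PSMG, which gave 50 of 19975 genes. Their loops were those of either deposited list with an anchor within 1 kb of the start site of any annotated transcript of such a gene, which gave 175 of 77862 loops. The loops came from POLR2A HiChIP-seq, in which chromatin is cut with MboI and ligated before the fragments bound by the largest subunit of RNA polymerase II (RNAPII) are pulled down. HepG2 cells, an established line of human hepatocellular carcinoma, had been given sterilized water (mock) or 20 µM pyridostatin (PDS), a small molecule that binds DNA G-quadruplex (G4) structures, for 24 h. There were 2 biological replicates per condition, and the authors deposited 1 combined list for mock-treated and 1 for PDS-treated cells. Each loop carries a whole-number count of paired-end tags (PETs), the read pairs that join its anchors. The study asked whether RNAPII-linked looping depends on G4 structures, and the comparison here is between these lists at the proteasome genes. With 1 list per condition there was no spread between replicates, so no test between conditions could be made. The 95% intervals given with ratios and shares cover counting error only.

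The 26S proteasome degrades proteins that carry ubiquitin chains. Its 20S core is a barrel of alpha and beta subunits, with the gates in the alpha rings and the proteolytic sites inside the beta rings. The 19S particle caps the core, binds and unfolds the substrate with a ring of ATPases and removes its ubiquitin. Other activators, an inhibitor and dedicated chaperones bind the core or its precursors, and in mammalian cells the transcription factor NFE2L1 raises the proteasome genes together when proteolysis is blocked. All cells make the constitutive subunits, while other beta subunits replace the catalytic ones in immune cells, after interferon or in the thymus.

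Because the study is about G4 structures, the predicted G4 motif nearest to the canonical start site is shown for the members described in full below. A motif meant that 4 G runs, each 3 or more bases long, lay 1 to 7 bases apart on 1 strand, and it was looked for in the loop anchors that lie within 1 kb of a start site of the gene. Of 19 such members, 14 had a motif and 13 had a nearest motif of at most 30 bases. The sequences are read from GRCh38 along the strand that holds the G runs, which are in capitals. A G may serve as a spacer base, so in PSMB11 and PSMB3 1 long unbroken run in capitals stands for a pair of runs with a G between them.
PSMF1, chr20:1118607-1118626, minus strand, 14 bases into the gene in a UTR exon: GGGGacGGGGcGGGGcGGGG
PSME2, chr14:24146655-24146678, minus strand, 56 bases upstream of the canonical start: GGGGGcGGGGttgaGGGGGGcGGG
PSMD9, chr12:121888691-121888716, minus strand, 86 bases upstream: GGGatGGGGcttaGGGcggagctGGG
PSME4, chr2:53970817-53970837, minus strand, 166 bases into the gene in a UTR exon: GGGGGccGGGGaGGGttcGGG
PSMA7, chr20:62143559-62143583, plus strand, 177 bases upstream: GGGccGGGcgctGGGtgcgaGGGGG
PSMB7, chr9:124415203-124415226, minus strand, 228 bases into the gene in an intron: GGGGaatcaGGGcctGGGcgtGGG
PSME3IP1, chr16:57186287-57186308, plus strand, 258 bases upstream, inside transcripts of RSPRY1: GGGGactgaGGGaGGGctGGGG
PSME3, chr17:42833070-42833095, minus strand, 314 bases upstream: GGGGacccGGGtactGGGttcGGGGG
PSMB11, chr14:23041856-23041873, minus strand, 348 bases upstream: GGGcGGGGGGGGctGGGG
PSMD13, chr11:236439-236463, minus strand, 525 bases upstream, inside transcripts of SIRT3: GGGaccGGGGcgccGGGGGcGGGGG
PSMB3, chr17:38751568-38751588, plus strand, 1163 bases upstream: GGGttGGGGGGGtgtggaGGG
PSMD5, chr9:120847214-120847237, minus strand, 4304 bases upstream: GGGGaaGGGGatGGGGttccaGGG
PSMD1, chr2:231085643-231085668, minus strand, 28788 bases into the gene in an intron: GGGGtcccGGGGtgtGGGGGtGGGGG
PSMA1, PSMA5, PSMA6, PSMD12 and PSMD14 had no motif in a promoter anchor, and the nearest motif of PSMB5 was longer than 30 bases.

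In mock-treated cells the proteasome genes held 158 loops and 649 PETs, against 36 loops and 130 PETs after PDS. The PDS/mock ratio was 0.228 (95% interval 0.159 to 0.327) for the number of loops and 0.2 (0.166 to 0.242) for PETs. Loops at any protein-coding start site gave 0.254 (0.248 to 0.261) and 0.228 (0.225 to 0.231), so the intervals of the proteasome genes held the values of all promoter loops. The whole lists fell from 66417 to 18778 loops, a ratio of 0.283 (0.278 to 0.287), and their PETs gave 0.263 (0.261 to 0.265). The members' loop interval held the former value, and their PET interval did not hold the latter. In both lists the counts start at 3 PETs, and a loop that is not listed may still have had up to 2. The sums are not library depths, since they depend on how many loops reached that minimum. The counts were not normalized, and the part of library depth in the ratios was not tested, so a loop not listed after PDS is not shown to be lost. Relative to all listed PETs, the proteasome genes held 25.5 of every 10000 in the mock list and 19.4 in the PDS list, a ratio of 0.761 (0.631 to 0.919). All promoter loops together gave 0.866 (0.854 to 0.877) on the same scale.

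At least 1 mock loop was listed at 38 of the 50 genes, or 76% (62.6 to 85.7), against 60.0% of all protein-coding genes. After PDS a loop was listed at 20 of them, or 40% (27.6 to 53.8), against 28.8% of all genes. The number of listed loops was lower after PDS at 36 members, or 72% (58.3 to 82.5), where 54.4% of all genes had fewer. Among genes with a mock loop, the share with fewer loops after PDS was 94.7% (82.7 to 98.5) for the members and 90.7% for all genes. Both numbers were equal and above 0 at PSMB11 and PSMD5, and only PSMA5 had more loops after PDS. The 11 members with no loop in either list were PSMA2, PSMA4, PSMA8, PSMB2, PSMB6, PSMB8, PSMC1, PSMD6, PSMD7, PSMD10 and PSMG3. For these genes a contact below the minimum count would not be seen, so they are not shown to lack contacts.

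**Figure D1:**
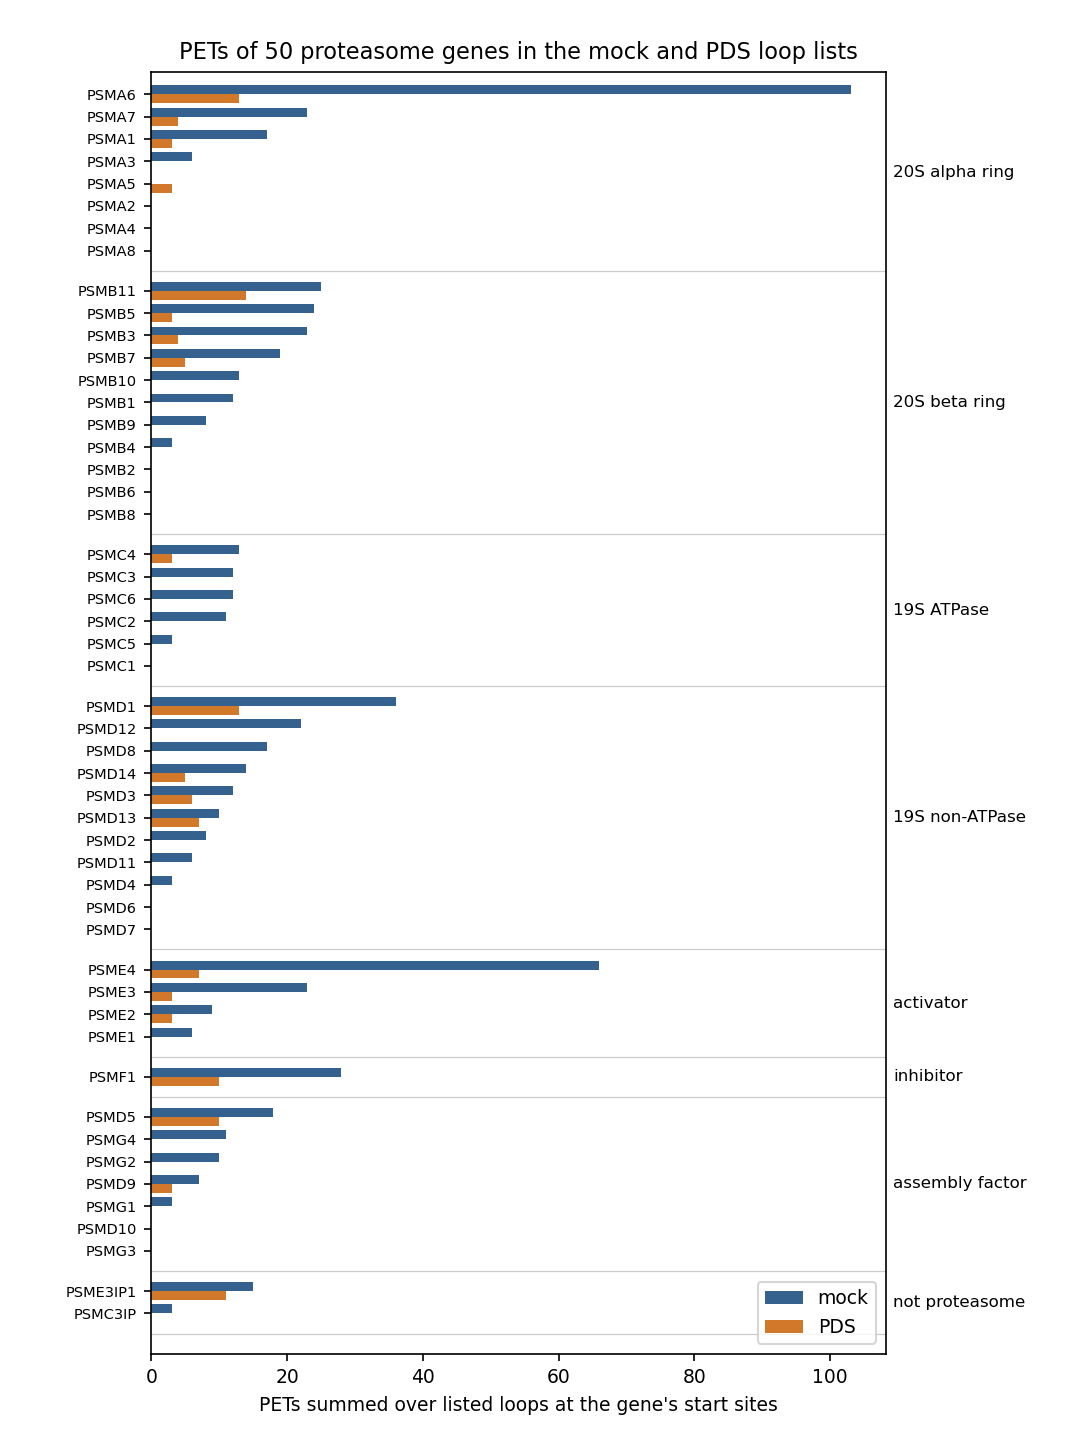
PETs summed over the listed loops at each of the 50 proteasome genes (horizontal axis, PETs) in the mock list and in the PDS list, grouped by role. PSMA6 holds 103 PETs in the mock list and 13 in the PDS list, and only PSMA5 has a longer PDS bar than mock bar.

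The signal was uneven among the members. The 10 genes with most mock PETs held 83 loops and 368 PETs, or 56.7% of the members' mock PETs, and 19 loops with 71 PETs after PDS. PSMA6 alone held 15.9%. Members with any mock loop had a median of 3 loops, and 9 of them had at least 5. At the canonical start site a mock loop was listed at 31 members and a PDS loop at 13. The mock loops of PSMC6, PSMD1, PSMD4, PSMD8, PSMD14, PSMG1 and PSMG2 all lay at other start sites, as did the PDS loop of PSMA5. A promoter anchor was shared with the start site of another protein-coding gene at 18 members, and for those loops the gene that the contact belongs to cannot be told apart. At PSMA1, PSMB10 and PSMD9 the other gene was only a readthrough model known by an ID. Such models were not counted as other genes in the shares of loops to other promoters below.

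The alpha ring of the 20S core was listed with 35 loops (149 PETs) in mock-treated cells and 6 loops (23 PETs) after PDS. PSMA6, on chromosome 14 (chr14:35278633-35317493, plus strand), had 22 mock loops with 103 PETs, the most of any member, and 3 PDS loops with 13 PETs. The mock loops of PSMA6 lay at 3 promoter anchors, none with a G4 motif. The anchor at the canonical start site had 12 mock loops with 44 PETs and no PDS loop. The anchor whose centre lies 12.9 kb upstream had 5 mock loops and 1 PDS loop, and the one 15.9 kb downstream had 7 mock loops and 2 PDS loops, with loops between these anchors counted at both. The loops that remained listed were therefore those of the alternative start sites. They were a 53.0 kb contact into the neighbouring gene PRORP with 7 PETs in mock and 6 after PDS, an 81.7 kb contact to the same distal anchor with 12 and 3 PETs, and a 16.3 kb contact downstream of the gene with 10 and 4 PETs. The mock loops at the canonical anchor were weaker, mostly of 3 or 4 PETs and at most 7. Such loops were less often listed again among all promoter loops, and the part of this in the contrast between start sites was not tested. One mock loop of 4 PETs ran 114.0 kb from the canonical start of PSMA6 to the start of NFKBIA, which encodes an inhibitor of NF-kappaB, and it was not listed after PDS.

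PSMA7, whose anchor also holds the start of the neighbouring gene SS18L1, had 7 mock loops (23 PETs) against 1 after PDS (4 PETs). The loop that stayed, 12.9 kb to another start site of SS18L1, had 4 PETs in both lists. PSMA1 had 4 loops with 17 PETs and then 1 loop with 3 PETs, and its strongest contact, 15.0 kb to COPB1, the gene of a coat protein of Golgi vesicles, had 7 PETs in mock and 3 after PDS. PSMA3 had 2 mock loops of 3 PETs and none after PDS. PSMA5 had no mock loop and 1 PDS loop of 3 PETs, 98.4 kb to the start of AMIGO1. At the minimum of 3 PETs, a loop of this size in 1 list and its lack in the other differ by as little as 1 PET.

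The beta ring was listed with 30 loops (122 PETs) in mock and 6 loops (26 PETs) after PDS. Of the catalytic subunits, PSMB5, which has the chymotrypsin-like site, had 7 mock loops (24 PETs) against 1 after PDS (3 PETs). Its mock loops included contacts to C14orf93 (4 PETs), to AJUBA and to the methyltransferase gene PRMT5 (3 PETs each), and its PDS loop ran to another anchor at AJUBA. PSMB7, which has the trypsin-like site, had 5 loops with 19 PETs in mock and 1 loop with 5 PETs after PDS. That loop, 11.2 kb long and inside the gene, had 4 PETs in mock. PSMB6, which has the caspase-like site, had no listed loop.

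PSMB11, the beta subunit of the thymus form, had 3 loops in each list, 2 of them shared, with 25 PETs in mock and 14 after PDS. Its 33.1 kb contact to C14orf93 had 13 PETs in mock, the highest count of any proteasome gene loop, and 3 after PDS. Its 12.4 kb contact to CDH24, a cadherin gene, had 7 PETs in mock and 8 after PDS, the highest PDS count of the members. The PSMB11 anchor also overlaps the body of CDH24, so these contacts may belong to either gene. A mock loop of 5 PETs, 8.2 kb long, joined PSMB5 and PSMB11, which are neighbours on chromosome 14. It was the 1 loop that joined a pair of proteasome genes, and it was not listed after PDS.

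Among the structural beta subunits, PSMB3 had 6 mock loops (23 PETs) against 1 after PDS (4 PETs), at an anchor shared with the polycomb gene PCGF2. Its 8.22 kb loop had 5 PETs in mock and 4 after PDS, while a 400.1 kb contact to PLXDC1, the longest of the members, had 5 PETs in mock only. PSMB1, which shares its anchor with the TATA-binding protein gene TBP, had 3 mock loops with 12 PETs and none after PDS. PSMB4 had 1 mock loop of 3 PETs. The immunoproteasome subunits PSMB9 and PSMB10 had 2 and 4 mock loops, with 8 and 13 PETs, and no PDS loop. The PSMB9 anchor also holds the start of TAP1. Its 5-PET loop reached 31.4 kb to an anchor with start sites of both HLA-DOB and TAP2. The products of TAP1 and TAP2 together carry proteasome peptides into the endoplasmic reticulum.

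**Figure D2:**
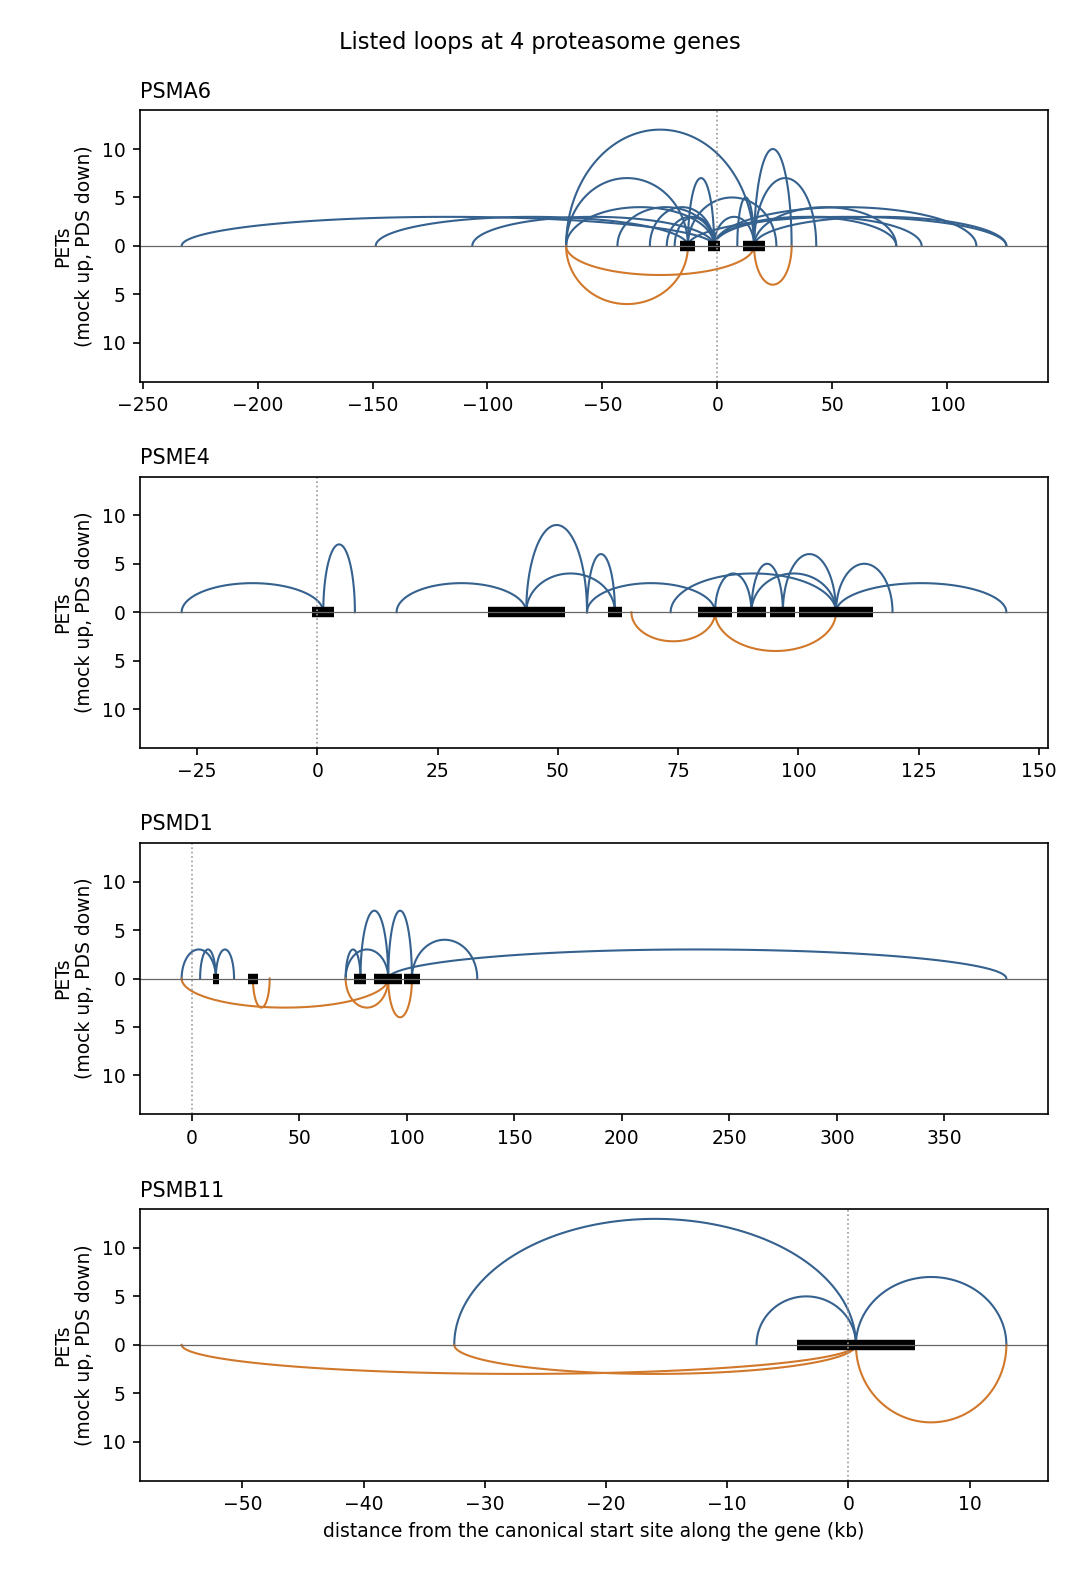
Listed loops at PSMA6, PSME4, PSMD1 and PSMB11, drawn as arcs between anchor centres by distance from the canonical start site along the gene (kb), with the arc height giving PETs, mock upwards and PDS downwards. Black bars are anchors within 1 kb of a start site of the gene. At PSMA6 no PDS arc reaches the anchor at the canonical start, and at PSMD1 no arc of either list starts from an anchor within 1 kb of the canonical start.

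The 6 ATPases of the 19S base, PSMC1 to PSMC6, were listed with 14 loops (51 PETs) in mock and 1 loop (3 PETs) after PDS, a loop ratio of 0.0714 (0.012 to 0.425). This interval held the loop ratio of all members. The PET ratio was 0.0588 (0.0194 to 0.178), an interval below the members' PET ratio of 0.2, but listed PETs come in loops of at least 3 and are not independent, so this interval is too narrow. PSMC4 had 4 mock loops with 13 PETs and the 1 PDS loop, which lay at a different anchor, shared with ZNF546, and had 3 PETs. PSMC3 had an 8-PET loop of 5.8 kb and a 4-PET loop to the zinc transporter gene SLC39A13, PSMC6 had 4 loops of 3 PETs, and PSMC2 had 3 loops with 11 PETs, of which the strongest ran 9.7 kb to the neighbouring gene DNAJC2. PSMC5 had 1 loop of 3 PETs. None of these loops was listed after PDS, and no ATPase loop was shared between the lists.

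The 11 non-ATPase genes of the 19S particle were listed with 32 loops (128 PETs) in mock and 9 loops (31 PETs) after PDS. PSMD1 (chr2:231056845-231173116, plus strand), the large scaffold subunit, had 9 mock loops (36 PETs) against 4 after PDS (13 PETs). All of them lay at start sites of shorter transcripts, at anchors centred 11.2 to 102.4 kb inside the gene, and none had an anchor within 1 kb of the canonical start. Some loops of PSMD1 had far anchors on either side of that start, at chr2:231049344-231054966 and chr2:231058674-231062831, outside the 1 kb window. Its 11.0 kb internal loop had 7 PETs in mock and 4 after PDS, its 19.8 kb loop to the start of HTR2B, a serotonin receptor gene that lies inside PSMD1, had 3 in both, and its 12.9 kb internal loop had 7 PETs in mock only. PSMD12 had 4 mock loops with 22 PETs and none after PDS, and its 6.11 kb loop, with 10 PETs, was the strongest mock loop of the members that was not listed again. PSMD14, the deubiquitinase of the particle, had 4 mock loops (14 PETs) against 1 after PDS (5 PETs). That loop, 8.26 kb to the neighbouring gene TBR1, had 4 PETs in mock. The promoter anchors of PSMD14 were centred 75.5 and 99.7 kb inside the gene, and none lay at its canonical start.

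PSMD13, whose anchor is shared with the sirtuin gene SIRT3, had 3 mock loops (10 PETs) against 2 after PDS (7 PETs), and its 7.64 kb loop had 3 PETs in both lists. Its 4-PET mock loop to IFITM5, NLRP6 and PGGHG was not listed after PDS, while a 4-PET loop to RIC8A and BET1L was listed after PDS only. PSMD3 had 3 mock loops (12 PETs) against 2 after PDS (6 PETs), with none in common. PSMD8, whose anchor holds the starts of FAM98C, GGN and SPRED3 as well, had 4 mock loops with 17 PETs, of which the strongest (8 PETs) ran 29.0 kb to RASGRP4, and none after PDS. PSMD2, PSMD11 and the ubiquitin receptor PSMD4 had 2, 2 and 1 mock loops, of 3 or 4 PETs, and none after PDS.

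The activators were listed with 24 loops (104 PETs) in mock and 4 loops (13 PETs) after PDS. PSME4, which encodes PA200, had 14 mock loops (66 PETs) against 2 after PDS (7 PETs), and lies at chr2:53864069-53970993 on the minus strand. No loop of PSME4 was in both lists. Its 14 mock loops were spread over 7 promoter anchors, and 2 of them, with 10 PETs, lay at the canonical start site. The strongest, 12.6 kb inside the gene, had 9 PETs and was not listed after PDS. PSME3, which encodes the nuclear PA28 gamma and shares its anchor with the autophagy gene BECN1, had 6 mock loops with 23 PETs, to EZH1, WNK4, AOC2 and others, and 1 PDS loop with 3 PETs, to PTGES3L. PSME1 and PSME2, the interferon-inducible PA28 subunits, had 2 mock loops each, with 6 and 9 PETs. A 5.62 kb loop between PSME2 and EMC9 had 4 PETs in mock and 3 after PDS, and the 23.8 kb loop of PSME2 to REC8 had 5 PETs in mock only.

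The inhibitor PSMF1, which encodes PI31, had 6 mock loops (28 PETs) against 3 after PDS (10 PETs). A 9.39 kb loop had 3 PETs in both lists, its strongest mock loop, 17.4 kb between its own start sites, had 7 PETs and was not listed again, and 2 loops of 3 and 4 PETs were listed after PDS only. The 7 assembly factors had 12 mock loops (49 PETs) and 4 PDS loops (13 PETs). PSMD5, a chaperone of the 19S base, had 3 loops in each list, 2 of them shared, with 18 PETs in mock and 10 after PDS. Its 12.9 kb loop had 8 and 3 PETs and its 7.33 kb loop had 4 in both. PSMD9, another base chaperone, had a 90.0 kb loop to RHOF with 3 PETs in both lists and a 29.5 kb loop to HPD, a tyrosine catabolism gene of the liver, with 4 PETs in mock only. The 20S chaperones PSMG1, PSMG2 and PSMG4 had 1, 3 and 3 mock loops and none after PDS. Those of PSMG2 lay at an anchor centred 42.8 kb upstream of its canonical start and shared with SPIRE1.

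The symbol rule also took 2 genes whose products are not proteasome components. PSMC3IP, a meiotic recombination factor, had 1 mock loop of 3 PETs. PSME3IP1, which encodes a binding partner of PSME3, had 4 mock loops (15 PETs) against 3 after PDS (11 PETs). Its 10.2 kb loop had 3 PETs in both lists, and its 36.7 kb loop to RSPRY1, with 5 PETs, was the strongest loop of the members listed after PDS only. Without these genes the loop ratio was 0.216 (0.148 to 0.314), and for the 31 constitutive 20S and 19S genes it was 0.184 (0.114 to 0.299). The PET ratios were 0.189 (0.155 to 0.229) and 0.169 (0.131 to 0.218), and the latter interval lay below the 0.228 of all promoter loops, subject to the same limit on PET intervals.

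**Figure D3:**
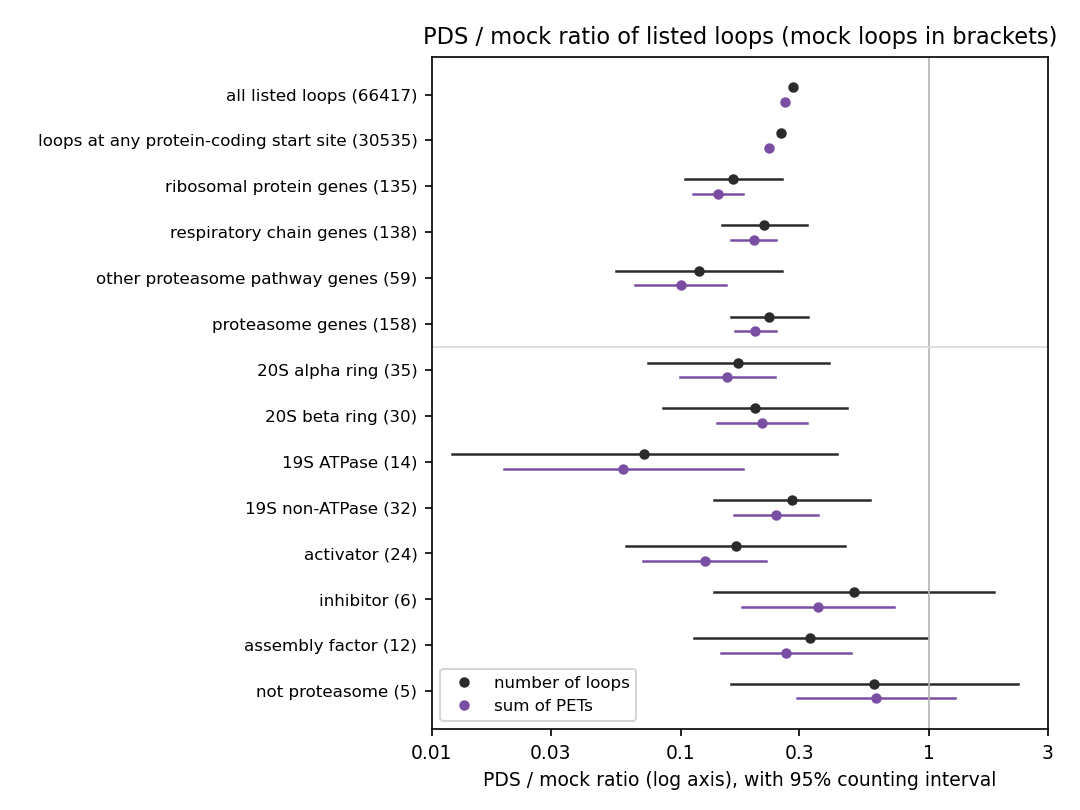
PDS/mock ratios of the number of listed loops and of the sum of PETs (horizontal log axis) with 95% counting intervals as lines, for all loops, promoter loops, comparison gene groups and the proteasome genes by role, with the number of mock loops in brackets. The proteasome genes lie at 0.228 for loops and 0.2 for PETs, and the loop intervals of the roles overlap one another.

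Of the 158 mock loops at proteasome genes, 19 were also in the PDS list, or 12% (7.84 to 18.0), where 11.0% of all mock promoter loops were. They made up 52.8% (37.0 to 68.0) of the members' PDS loops, and the shared loops of all promoters made up 43.2% (42.1 to 44.3) of PDS promoter loops, a value inside the members' interval. The share depended on the mock count: 5 of 84 loops with 3 PETs, 5 of 36 with 4 PETs, 1 of 21 with 5 to 6 PETs and 8 of 17 with 7 or more PETs were listed again. For all promoter loops the shares in these classes were 5.47%, 11.6%, 20.4% and 40.4%, and each lay inside the members' interval for its class. The 19 shared loops held 111 PETs in mock and 74 after PDS. Of these loops 9 had fewer PETs after PDS, 7 had the same number and 3 had more, namely those of PSMB7, PSMB11 to CDH24 and PSMD14 to TBR1, each by 1 PET. Loops enter this group only if both counts reach 3, so it leaves out every loop that dropped below.

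Matching the loops less strictly changed this share most. When both anchors were extended by 5 kb, 38.0% (30.8 to 45.7) of the members' mock loops had a PDS counterpart, against 32.2% (31.7 to 32.7) of all promoter loops, a value inside the members' interval. PSMB5 is an example, with a 52.1 kb contact to AJUBA in mock and a 57.2 kb contact to AJUBA from the same PSMB5 anchor after PDS.

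**Figure D4:**
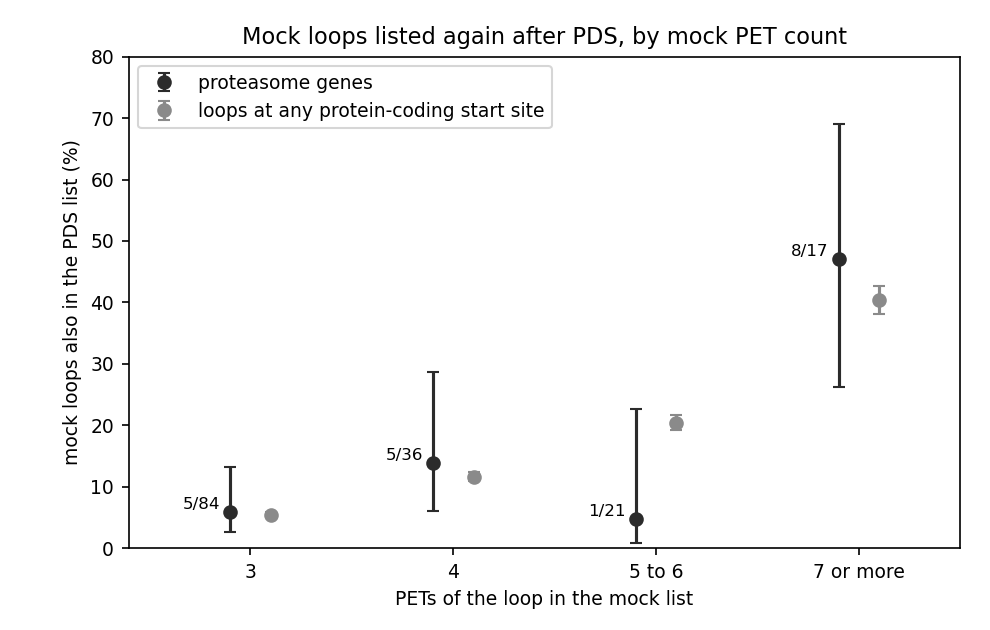
Share of mock loops that were also in the PDS list (vertical axis, %) by the PET count of the loop in the mock list, for proteasome genes and for all loops at protein-coding start sites, with 95% Wilson intervals as bars and the members' counts as fractions. For loops with 7 or more PETs the share was 47.1% at the proteasome genes and 40.4% at all start sites.

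The loops of the proteasome genes had a median distance between anchor centres of 21.2 kb (17.4 to 27.9) in mock and 16.9 kb (11.0 to 48.9) after PDS. All mock promoter loops had a median of 19.9 kb. Of the 158 mock loops, 6 were longer than 200 kb, and none of the 36 PDS loops was. These counts are too small to show a difference in long loops, and the share among all promoter loops was not computed. A start site of another gene lay at the far anchor of 55 mock loops, or 34.8% (27.8 to 42.5), and of 15 PDS loops, or 41.7% (27.1 to 57.8). With canonical start sites only the order turned, with 31.2% (22.9 to 41.1) in mock and 23.5% (9.56 to 47.3) after PDS, and the intervals overlapped in both settings. Since a loop between a pair of promoters can be found from either end, the comparison with all genes was made per promoter end. Of 181 mock ends at proteasome promoters, 31.5% (25.2 to 38.6) led to a promoter of another gene, against 23.4% (23.0 to 23.8) of all promoter ends. After PDS the shares were 36.6% (23.6 to 51.9) and 20.7% (19.9 to 21.5). Ends at 1 gene share an anchor and are not independent, so these intervals are too narrow. The higher share was not particular to the proteasome genes. Counted per mock loop, as for the members' 34.8%, it was 48.9% (40.6 to 57.2) for the ribosomal protein genes. For the respiratory chain genes it was 37.0% (29.4 to 45.3).

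A predicted G4 motif was in at least 1 anchor of 121 of the 158 mock loops, or 76.6% (69.4 to 82.5), and of 30 of the 36 PDS loops, or 83.3% (68.1 to 92.1). Counting only motifs in the member's own promoter anchor turned the order, with 60.1% (52.3 to 67.4) in mock and 58.3% (42.2 to 72.9) after PDS, again with overlapping intervals. All promoter loops had a motif in 83.2% of mock loops and 83.1% of PDS loops. PSMA6 lowered the members' mock share, which was 81.6% (74.3 to 87.2) without it. By anchor, 37 of the 70 promoter anchors of the members held a motif, or 52.9% (41.3 to 64.1), against 66.6% of all promoter anchors. The members' anchors were also narrower (median 5816.5 against 6622 bp) and had a lower GC content (median 44.9% against 47.3%), and the part of these in the motif share was not tested. Loops with a motif numbered 121 in mock and 30 after PDS, a ratio of 0.248 (0.167 to 0.369), and loops without one numbered 37 and 6, a ratio of 0.162 (0.0702 to 0.375). The intervals overlapped, so no difference between the classes was detectable at these counts. For all promoter loops the ratios were 0.254 (0.247 to 0.261) with a motif and 0.256 (0.241 to 0.272) without. A motif is a match of letters and does not show that a G4 structure formed.

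NFE2L1, the factor that raises proteasome genes under proteolytic stress, binds antioxidant response elements, so the core TGACNNNGC was looked for on both strands of the RefSeq promoters, from 250 bases before to 50 after the start (build GRCh38.p14). Of the 44 members in that table, 13 held the letters, or 29.5% (18.2 to 44.2), against 14.3% of 15812 protein-coding promoters. The matches in the members described in full are given with up to 8 flanking bases on each side, in the direction of the match and with its letters in capitals.
PSMB3, chr17:38752629-38752653, 100 bases upstream of the RefSeq start: ctccgtttTGACTTTGCaaccaaac
PSMD12, chr17:67366726-67366750, 161 bases upstream: acaaaaccTGACGCTGCaggctgga
PSMD5, chr9:120843040-120843064, 130 bases upstream: gctacagtTGACACGGCcctaacgg
PSMD9, chr12:121888680-121888704, 98 bases upstream: gcttccggTGACCCAGCtccgccct
PSMD9, chr12:121888633-121888657, opposite strand, 145 bases upstream: gcctgtggTGACCCGGCaggagtag
PSME2, chr14:24146769-24146793, 171 bases upstream: ctggactgTGACCCAGCcagcaccg
PSME4, chr2:53971011-53971035, opposite strand, 30 bases upstream: tctgctggTGACGCTGCagccgccg
PSMD1, chr2:231056898-231056916, 43 bases downstream: gaggcgacTGACTGAGCag
The 13 genes with the letters had 55 mock loops and 15 PDS loops, a ratio of 0.273 (0.155 to 0.479). The 31 without had 87 and 19, a ratio of 0.218 (0.134 to 0.357), with overlapping intervals. These loops were counted at all annotated start sites, while the letters were searched for only in the RefSeq promoter of each gene. The loops therefore need not lie at the promoter that held the letters, as at PSMD1, whose loops all lay at other start sites. CCAAT, on either strand, was in 47.7% (33.8 to 62.1) of the members' promoters and 36.3% of all. The G4 motif was in 25% (14.6 to 39.4) and 30.4%. No other sequence was searched for.

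Of 22 other genes of the proteasome pathway, 18 had a mock loop and 5 a PDS loop, with 59 mock loops (230 PETs) and 7 PDS loops (23 PETs) in all. The genes with a loop made up 81.8% (61.5 to 92.7) in mock, against 60.0% of all protein-coding genes. After PDS they made up 22.7% (10.1 to 43.4), against 28.8%. The loop ratio was 0.119 (0.0552 to 0.255), with an interval that overlapped that of the proteasome genes, and the PET ratio was 0.1 (0.0653 to 0.153), with one that did not (0.166 to 0.242 for the proteasome genes). The PET intervals are too narrow, as said for the ATPases, and rest here on 7 PDS loops. Fewer loops were listed after PDS at 16 of the 22 genes, or 72.7% (51.8 to 86.8), against 54.4% of all genes, and at none were there more. Among genes with a mock loop the shares were 88.9% (67.2 to 96.9) and 90.7%, so the count was near that of all genes. NFE2L2, a stress transcription factor related to NFE2L1, had 17 mock loops (66 PETs) against 3 after PDS (10 PETs). ADRM1, a ubiquitin receptor of the 19S particle, had 6 loops with 25 PETs and then 1 loop with 4 PETs. DDI2, the protease that activates NFE2L1, had 5 mock loops with 19 PETs and none after PDS, and NFE2L1 itself had 1 mock loop of 3 PETs. AKIRIN2, a factor in the nuclear import of proteasomes, had 4 mock loops with 15 PETs and none after PDS. USP14 and UBQLN4, a deubiquitinase and a ubiquitin-binding shuttle, had 1 loop in each list, and POMP, UBQLN1, UBQLN2 and VCP had none.

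Other gene groups whose products also form large complexes gave ratios whose intervals overlapped that of the proteasome genes. The 77 ribosomal protein genes had 135 mock loops and 22 PDS loops, a ratio of 0.163 (0.104 to 0.255), and the 87 respiratory chain genes had 138 and 30, a ratio of 0.217 (0.147 to 0.322). A mock loop was listed at 75.3% (64.6 to 83.6) of the ribosomal protein genes and 62.1% (51.6 to 71.5) of the respiratory chain genes, whose intervals overlap that of the proteasome genes. The mean number of mock loops per gene was 3.18 for the proteasome genes, 1.77 and 1.59 for these groups, and 2.02 for all protein-coding genes. PSMA6 with 22 mock loops and PSME4 with 14 raised the members' mean. The median was 2.5 for the proteasome genes and 1 for each of the other groups, all protein-coding genes included. Chromosomes 2, 6, 14, 16, 17 and 20 held 120 of the members' 158 mock loops, against 15661 of 30535 for all promoter loops. Loops were counted at the start sites of all annotated transcripts. With canonical start sites only, the members had 96 mock loops, a value not computed for the other groups. The part of position and of the number of start sites per gene in the mean and median was not tested.

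Position on the chromosomes was looked at because the lists differed between chromosomes as a whole. Over all promoter loops the PDS/mock ratio was 0.282 (0.273 to 0.292) on chromosomes 2, 6, 14, 16, 17 and 20 and 0.225 (0.217 to 0.234) on the others. The chromosomes were grouped with these lists known, so the gap between the groups is not an independent result. The proteasome genes gave 0.217 (0.142 to 0.33) on the former, with 120 mock and 26 PDS loops, and 0.263 (0.133 to 0.521) on the latter, with 38 and 10. For PETs on the former chromosomes, the members gave 0.193 (0.155 to 0.24) and all promoter loops 0.248 (0.244 to 0.252), which the members' interval did not hold. The PET intervals are too narrow, as said for the ATPases. The members' loop interval on the former chromosomes did hold the 0.282 of all promoter loops. For PETs on the other chromosomes, the members gave 0.225 (0.156 to 0.326) and all promoter loops 0.204 (0.2 to 0.209). The members' loops between 20 and 40 Mb of chromosome 14, where PSMA6, PSMB5, PSMB11, PSME1 and PSME2 lie, had a loop ratio of 0.229 (0.108 to 0.484). The members' loops elsewhere had 0.228 (0.151 to 0.342). All promoter loops had 0.338 (0.3 to 0.38) in that region and 0.251 (0.245 to 0.258) elsewhere, and the members' intervals held both values. Of 9 hepatocyte markers, 8 had mock loops (APOA1 had none) and 9 had PDS loops, with 50 loops in mock and 18 after PDS. Of 5 markers of other cell types, COL1A1 and CDH5 had loops in both lists (11 in mock, 3 after PDS) and PTPRC, GATA1 and HBG1 had none.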

How the data were processed

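HepG2 cells were treated with water or 20 µM PDS for 24 h and subjected to POLR2A HiChIP-seq, with 2 replicates per condition. The authors deposited 1 list of loops per condition, and the value of each loop is its count of PETs, a whole number that was not normalized. The submitters' processing notes name HiC-Pro 3.1.0 and GRCh38. The tool that called the loops and the way the replicates were combined are not given in the sources used here, and different loop calling would change which loops reach the minimum of 3 PETs. Library depths were not used here.

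Loops were assigned with GENCODE 44 start sites, leaving out chromosome Y, with Python 3.11.15, pandas 2.3.3, numpy 2.4.6 and pysam 0.24.0. A loop was shared when both anchors overlapped by at least 1 bp. For a ratio of counts, the Wilson interval for the share that PDS took of their sum was turned into an interval for the ratio (scipy 1.17.1), shares have Wilson intervals and medians have intervals from binomial ranks. The code was tested on simulated data. All members are named. Full values were given for the 10 with most mock PETs, those with a shared loop and those with PDS loops only, 19 in all. The members, gene lists and tests were chosen with earlier results of these data known. Alternatives covered the PET minimum, window, start sites, members, matching and motif. All columns of PET counts were used.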

Additional observations from a re-analysis of the deposited data

How the results depend on the processing

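No paired analysis was possible because the lists hold no counts per replicate, and for the same reason no replicate could be left out. Of 64 alternatives, 47 left the value inside its main interval (counts of genes: within 1.5 times) and 17 moved it. None brought a PDS/mock ratio above 1, but the order of the mock and PDS shares turned for loops to another promoter with canonical start sites only, and for loops with a motif when it had to lie in the member's anchor. The loop ratio ranged from 0.132 to 0.271 and the PET ratio, as deposited, from 0.115 to 0.234. With a minimum of 5 PETs the loop ratio was 0.132, from 38 mock and 5 PDS loops, and the PET ratio 0.115. The shared share was then 5.26%, the members with a loop 20 in mock and 5 after PDS, and the mock median distance 12.5 kb. The ratios at this minimum were not computed for all promoter loops, of which 57.9% in mock and 70.8% after PDS have 3 PETs. These lower ratios are therefore not shown to be particular to the members. With a minimum of 4 PETs the PET ratio was 0.154. With canonical start sites only, the PET ratio was 0.164, 13 members had a PDS loop, and 31.2% of mock and 23.5% of PDS loops reached another promoter (34.8% and 41.7% with all start sites). Division by the list's PETs gave 0.761. Anchors extended by 5 kb gave a shared share of 38.0%. The share of loops with a motif was 84.2% in mock with spacers of up to 12 bases, 20.9% in mock and 33.3% after PDS with runs of at least 4 G, and 60.1% and 58.3% with the motif in the member's anchor. Reciprocal overlap of 50% gave the same shared loops, since the anchors of both lists are identical or do not overlap. The settings without PSMA6 and without chromosome 14 from 20 to 40 Mb were chosen after seeing the data. Many loops are at the minimum (53.2% of mock and 63.9% of PDS loops have 3 PETs), which limits what single loops show.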
